A study of Mus musculus with 8 samples.

Results

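The response of mouse cells to CSA (cyclosporin A) early in reprogramming was compared between day 3 and day 6, gene by gene, as a day by treatment interaction. For each gene the difference between CSA and DMSO at day 3 was subtracted from the same difference at day 6, on log2 signals, so that a negative interaction means that CSA acted more upward (or less downward) at day 3 than at day 6. Every gene on the array was eligible. One probe set stood for each gene, the one with the highest mean signal, and 12529 of the 18193 genes on the array passed the filter on low signal and were tested over all 8 arrays. Of these, 726 genes (5.79%) passed the test at an adjusted p under 0.05.

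The cells were of C57BL/6 background and belonged to a secondary OSKM system, in which Oct4 (Pou5f1), Sox2, Klf4 and Myc are switched on by doxycycline. All groups received doxycycline, written in the labels as 2 mg/ml, in medium for embryonic stem cells that held 15% serum and leukemia inhibitory factor at 100 units/ml. There were 4 groups of 2 arrays: CSA at day 3, DMSO (the solvent) at day 3, CSA at day 6 and DMSO at day 6, with CSA written as 10 mM. By the design text, each group's arrays are independent biological repeats. The sources used here give neither the starting cell type nor the number of clones.

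Cyclosporin A binds cyclophilins, and the complex blocks calcineurin, the phosphatase that activates NFAT transcription factors. During reprogramming, fibroblast-like cells first divide faster and lose mesenchymal genes, then gain cell junctions and epithelial keratins, and only later switch on the pluripotency network. The interaction asks whether the effect of CSA on a gene differed between an earlier and a later stage of this path.

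The arrays carried one log2 signal per probe set, scaled by MAS5, and a difference of 1 is a 2-fold difference in signal. Over tested probe sets the median signal ran between 8.22 and 8.24 at day 3 and between 8.44 and 8.47 at day 6, and arrays correlated at 0.968 to 0.974 within groups and at 0.957 to 0.963 between treatments. Oct4, Klf4, Myc, Cdh1, Epcam, Thy1, Vim and Col1a1 were tested, whereas the probe sets of Nanog, Sox2, Zfp42 and Fut4 fell below the filter; the Pou5f1 probe set was not told apart from the transgene. With 2 arrays per group the number of arrays limits the precision. Because these were cultures of mixed cells, a smaller share of cells of a type and less RNA per cell cannot be told apart. In each sentence below, a value that follows ± is the moderated standard error given by limma over all 4 groups (n = 2 arrays per group).

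One analysis choice decided whether anything was called. The spread within groups fell steeply with signal: its median SD was 0.61 in the lowest decile of tested probe sets by signal and 0.069 in the highest. The test therefore let the expected spread follow the signal (an intensity trend), and 1144 of 27022 probe sets (4.23%) passed. Without that trend limma called 0 probe sets, with 4287 at an unadjusted p under 0.05, 59 at an adjusted p under 0.10 and a lowest adjusted p of 0.077. With a stricter filter, at the 60th percentile of signal, 558 of 18015 probe sets passed without the trend, an alternative chosen after seeing the data. Leaving out CSA day 3 replicate 1 or 2, with the trend, left 386 and 401 probe sets, leaving out DMSO day 6 replicate 1 or 2 left 523 and 443, and leaving out CSA day 6 replicate 2 left 577. All calls below are those with the trend over all 8 arrays. Of the 119 genes that passed and were picked by the rule for named genes, 79 did not lose their call under that second alternative. Not all of the 119 are described here. Fewer of them kept their call when each single array in turn was left out. That count of 79 includes genes that its stricter filter left untested.

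The 726 genes fell into classes by what CSA did at each day. In 68 genes the CSA effect passed the test at both days with opposite signs. Of these, 53 (0.423% of genes tested) were higher with CSA at day 3 and lower at day 6, and 15 (0.12%) were lower at day 3 and higher at day 6. Another 282 genes were called at day 3 and not at day 6, and 286 at day 6 and not at day 3. A further 38 genes moved in the same direction at both days by unequal amounts, and 52 were called at neither day. Leaving out 1 array left between 16 and 44 of the 68 genes in the reversed class, and all 68 kept opposite signs at the 2 days each time. Those 68 genes had been chosen for opposite signs on these same arrays, so keeping the signs is no separate test. A missing call is not an absent effect: the 95% interval of the other day's effect lay within 0.5 log2 of zero in 210 of the 282 day 3 genes and in 204 of the 286 day 6 genes.

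Most genes that responded at both days moved one way. Of 489 genes called at both days, 421 (86.1%) had the same sign and 68 had opposite signs. The 1098 genes called at day 3 and not at day 6 included 282 (25.7%) for which the difference between days was itself called, and of 1080 genes called at day 6 and not at day 3 the difference was called for 286 (26.5%). Thus for most genes with a call at one day the difference between days did not pass. Across the 12529 genes, which are not independent replicates, the day 3 and day 6 effects, from separate arrays, correlated with a Pearson r of 0.20 and a Spearman rho of 0.21. The median interaction over all genes was -0.0057, on arrays that MAS5 had each scaled to one constant.

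**Figure D1:**
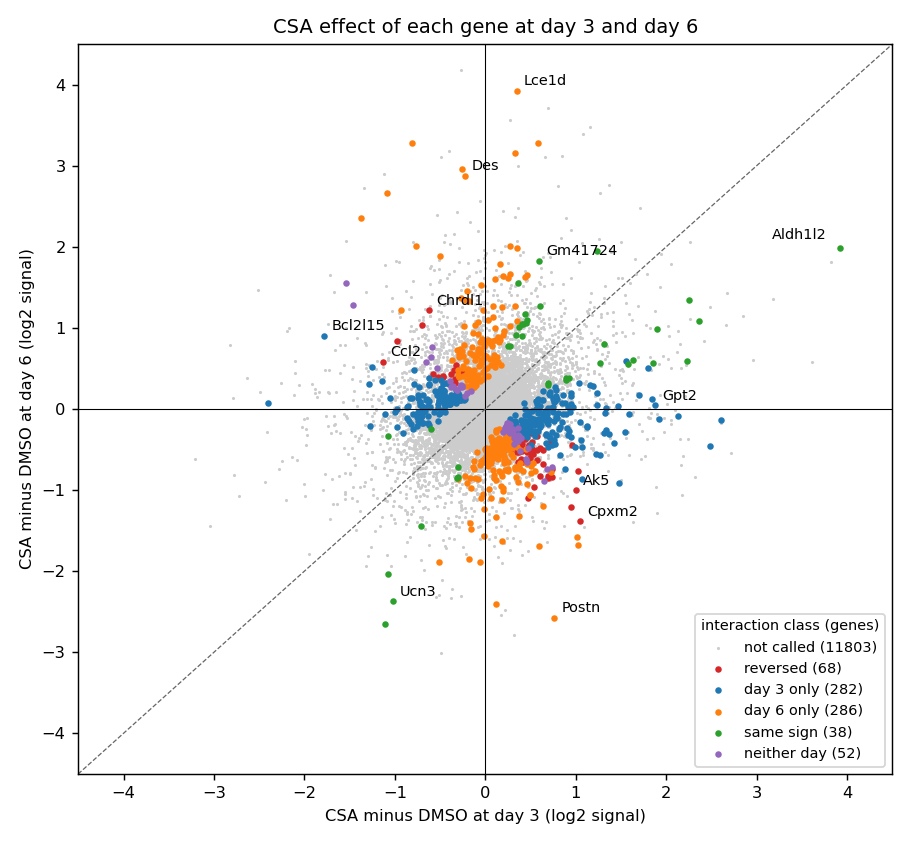
Difference between CSA and DMSO in log2 signal at day 3 (horizontal) and day 6 (vertical), 1 point per gene, coloured by class of interaction, with grey for genes not called. The dashed line marks equal effects: the 282 day 3 genes lie along the horizontal axis, the 286 day 6 genes along the vertical axis, and most of the 68 reversed genes lie at the lower right, higher with CSA at day 3 and lower at day 6.

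Epithelial genes had the most called members, by count, of the gene lists described here, and all called members had a negative interaction. Of 48 tested epithelial genes, 18 were called with a negative interaction, against 3.43% of all genes, and 0 with a positive one. The median effect of CSA over the list was 0.42 at day 3 and -0.32 at day 6, and 30 of the 48 were higher with CSA at day 3 and lower at day 6 by sign alone, against 2676 of all 12529 genes. Of the called members 7 reversed (St14, Krt8, Spint2, Cdh1, Crb3, Dsp and Cldn7), 9 were called at day 3 and not day 6 (Dsg2, Dsc2, Ap1m2, Pkp1, Esrp2, F11r, Ehf, Itgb4 and Patj), and Ripk4 and Llgl2 were called at day 6 and not day 3. These names complete the counts, and some were chosen after their values were seen.

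The list was also followed over time in each treatment. The median log2 signal of the 50 epithelial genes on the array was 8.81 and 8.88 in the CSA arrays of day 3, against 8.24 and 8.51 in the DMSO arrays. At day 6 it was 9.41 and 9.53 with CSA, against 9.70 and 9.73 with DMSO. Neither pair of groups overlapped. The median rise over the tested members between the days was 0.75 with CSA and 1.34 with DMSO, so epithelial signals stood higher with CSA early and then climbed less. The count of called members was 9 without DMSO day 6 replicate 2 and 11 without DMSO day 6 replicate 1, and between 12 and 20 without any other single array. Without CSA day 3 replicate 2, 1 member was called with a positive interaction.

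St14 encodes matriptase, a membrane serine protease of epithelia. Its log2 signal was 10.49 and 10.42 with CSA at day 3, against 9.95 and 9.76 with DMSO, and 11.01 and 11.13 with CSA at day 6, against 11.89 and 11.92 with DMSO. CSA arrays were above both DMSO arrays at day 3 and below both at day 6. The effect was 0.60 ± 0.09 at day 3 and -0.83 ± 0.09 at day 6, an interaction of -1.43 ± 0.13 (adjusted p = 7.81e-04). Spint2, an inhibitor of such proteases, followed the same order, with effects of 0.36 ± 0.08 and -0.65 ± 0.08 and an interaction of -1.01 ± 0.11 (adjusted p = 9.14e-04).

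Krt8, a keratin of simple epithelia, was among the brightest reversed genes. It measured 14.09 and 14.04 with CSA at day 3, against 13.66 and 13.78 with DMSO, and 13.91 and 13.87 with CSA at day 6, against 14.49 and 14.35 with DMSO. Krt8 therefore rose between the days in DMSO arrays and stood slightly lower at day 6 than at day 3 in CSA arrays (interaction -0.87 ± 0.09, adjusted p = 9.14e-04). Krt18, its partner in the filament, did not share the pattern, with effects of -0.48 at day 3 and 0.39 at day 6 and an interaction that was not called (0.87 ± 0.24, adjusted p = 0.071).

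Cdh1 encodes E-cadherin, whose appearance marks the switch to an epithelial state in reprogramming. It measured 12.76 and 12.85 with CSA at day 3, against 12.52 and 12.52 with DMSO, and 12.71 and 12.58 with CSA at day 6, against 13.17 and 13.12 with DMSO. The groups did not overlap at either day, and the interaction was -0.79 ± 0.09 (adjusted p = 0.00171). Dsg2, a desmosomal cadherin, had 10.84 and 10.69 with CSA at day 3, against 8.91 and 8.94 with DMSO, and 11.25 and 10.96 with CSA at day 6, against 10.82 and 11.15 with DMSO. Its CSA and DMSO arrays overlapped at day 6, where the effect was 0.12 ± 0.13, and the interaction was -1.72 ± 0.18 (adjusted p = 9.14e-04). The interaction calls of St14, Spint2, Krt8, Cdh1 and Dsg2 held without each single array and ended without the intensity trend. Epcam, another early epithelial marker, was not called (interaction -0.32 ± 0.20, adjusted p = 0.427), with effects of -0.37 ± 0.14 and -0.69 ± 0.14.

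**Figure D2:**
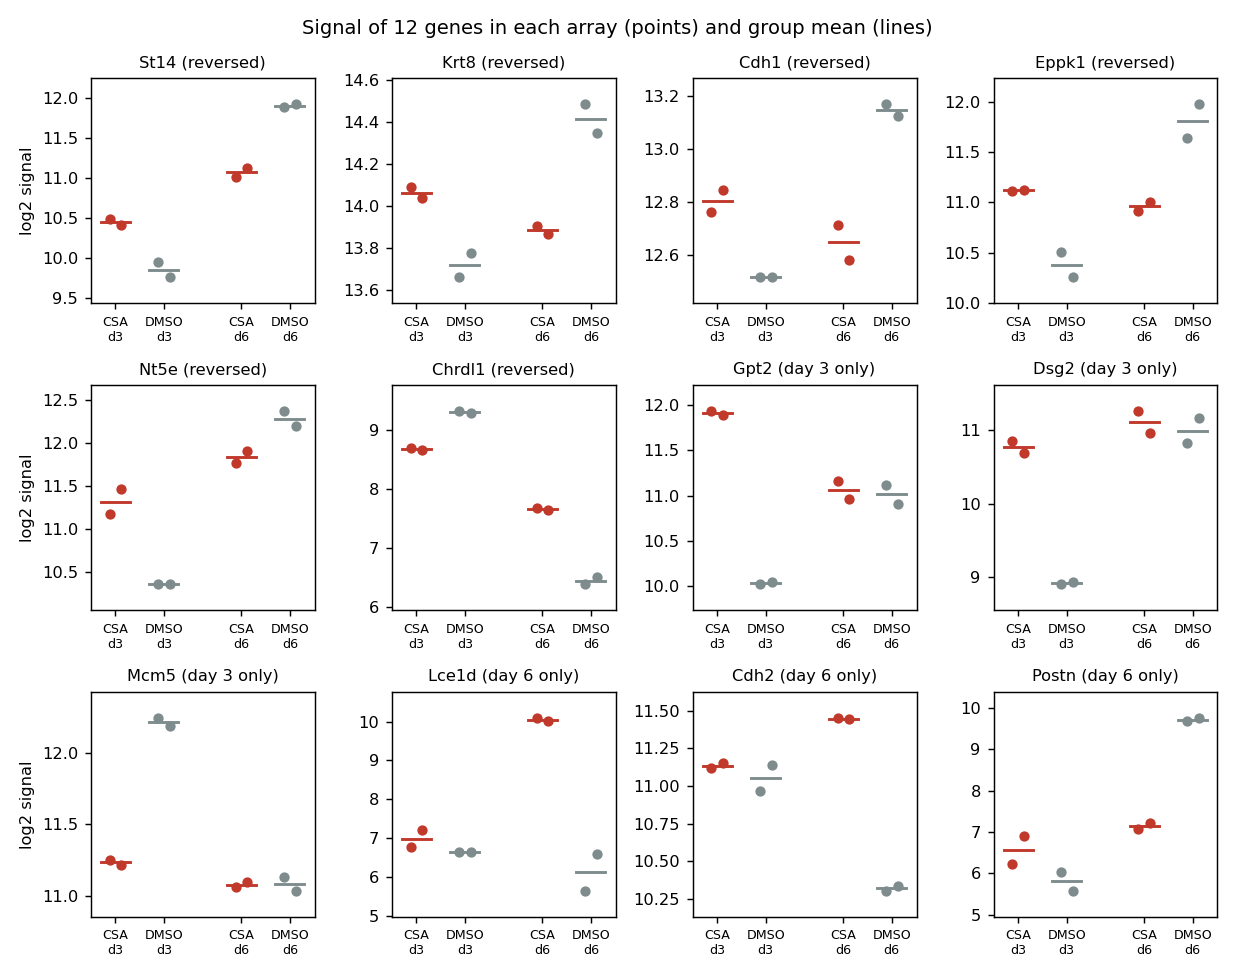
Log2 signal of 12 genes in each array, with CSA (red) left of DMSO (grey) at day 3 and day 6; points are arrays and lines are group means of 2. In St14, Krt8, Cdh1, Eppk1 and Nt5e the red points are above the grey at day 3 and below them at day 6, Chrdl1 does the opposite, and the genes of the other panels were called at 1 day only.

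The promoters of Spint2 and Krt8 are shown because both genes reversed and both hold the E-box CACCTG, the letters read by the Snail and Zeb repressors of epithelial genes. The sequences are the 250 bases before the start of transcription from RefSeq (GRCm38.p6), in the direction of the gene, with CACCTG on either strand in capitals.
Spint2, chr7:29281978-29282227, minus strand: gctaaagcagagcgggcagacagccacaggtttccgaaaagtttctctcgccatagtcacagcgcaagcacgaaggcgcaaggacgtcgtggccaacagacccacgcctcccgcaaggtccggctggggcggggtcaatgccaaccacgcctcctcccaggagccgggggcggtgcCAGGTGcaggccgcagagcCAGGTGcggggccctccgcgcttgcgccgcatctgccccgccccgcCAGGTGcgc
Krt8, chr15:102004343-102004592, minus strand: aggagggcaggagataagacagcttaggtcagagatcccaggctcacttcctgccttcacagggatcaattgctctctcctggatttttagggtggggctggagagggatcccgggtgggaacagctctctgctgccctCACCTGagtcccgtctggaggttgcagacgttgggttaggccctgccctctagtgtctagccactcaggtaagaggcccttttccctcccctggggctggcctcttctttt
Spint2 holds 3 such sites and Krt8 1. The promoter table matched 8 of the 18 called epithelial genes with 12 promoters, and 8 of those 12 hold CACCTG, in 7 genes, against 17.2% of all 32851 promoters in the table. No site overlapped another motif searched here. A match describes the letters in this window and not binding. The share among epithelial genes that were not called was not counted, and a link between the motif and the reversal was not tested.

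Reversed genes with higher signal at day 3 and lower at day 6 also included genes outside the epithelial list. Cpxm2, a carboxypeptidase-like secreted protein, had the largest reversal by the rule for named genes. It measured 6.68 and 6.78 with CSA at day 3, against 5.59 and 5.79 with DMSO, and 7.94 and 7.65 with CSA at day 6, against 9.04 and 9.31 with DMSO (interaction -2.43 ± 0.34, adjusted p = 0.00354). Ak5, an adenylate kinase, showed effects of like size and opposite sign, 1.0 ± 0.16 and -1.0 ± 0.16 (adjusted p = 0.00143 for the interaction). Eppk1 encodes epiplakin, a linker of keratin filaments, and measured 11.11 and 11.12 with CSA at day 3, against 10.51 and 10.26 with DMSO, and 10.92 and 11.001 with CSA at day 6, against 11.64 and 11.97 with DMSO. Its CSA arrays hardly moved between the days while DMSO arrays climbed past them (interaction -1.58 ± 0.16, adjusted p = 9.11e-04).

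Celf5, an RNA-binding protein, had an interaction of -1.57 ± 0.15. Muc4, a membrane mucin, had -2.15 ± 0.37, a call that ended without DMSO day 6 replicate 1 or 2 (adjusted p = 0.0553 and 0.0567), and Zc3h6, a zinc finger protein, had -1.79 ± 0.31, a call that ended without DMSO day 6 replicate 2 (adjusted p = 0.0577). Nt5e, the surface enzyme CD73 of mesenchymal cells, moved with the epithelial genes, with effects of 0.95 ± 0.10 and -0.44 ± 0.10 (interaction adjusted p = 9.14e-04); when all probe sets of Nt5e were averaged its call ended (adjusted p = 0.274). Tet2, which oxidises methylated cytosine, was at 0.40 ± 0.09 at day 3 and -0.52 ± 0.09 at day 6. Jun, a subunit of AP-1, was at 0.37 ± 0.09 and -0.53 ± 0.09, and Abcc1, an export pump of glutathione conjugates, at 0.39 ± 0.07 and -0.34 ± 0.07. Homer2 encodes a scaffold protein that competes with calcineurin for NFAT. It was the only called gene of 23 tested on the calcineurin and NFAT list, against 5.79% of all genes. Its interaction was -0.61 ± 0.11, -1.26 when probe sets reading several genes were left out, and -1.74 with its probe sets averaged. The Homer2 call ended without CSA day 3 replicate 1 (interaction -0.59) or DMSO day 6 replicate 2 (interaction -0.54).

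The opposite reversal, lower with CSA at day 3 and higher at day 6, was seen in 15 genes. Chrdl1, a secreted BMP antagonist, measured 8.69 and 8.66 with CSA at day 3, against 9.31 and 9.28 with DMSO, and 7.68 and 7.65 with CSA at day 6, against 6.39 and 6.50 with DMSO. It declined between the days in both treatments, by less with CSA (interaction 1.84 ± 0.24, adjusted p = 0.00245). When all probe sets of Chrdl1 were averaged the interaction was 1.05 and not called (adjusted p = 0.19). Ccl2, the monocyte chemokine, measured 8.29 and 8.04 with CSA at day 3, against 9.31 and 9.29 with DMSO, and 9.28 and 9.43 with CSA at day 6, against 8.99 and 8.57 with DMSO. No arrays overlapped at either day (interaction 1.72 ± 0.23, adjusted p = 0.00285).

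Its neighbour in function Ccl7 was called at day 3 and not day 6 (interaction 0.98 ± 0.20, adjusted p = 0.0246), a call that ended without any of 6 single arrays, all but DMSO day 3 replicate 1 and CSA day 6 replicate 1 (adjusted p = 0.0669 to 0.101). Cnfn, encoding cornifelin of the cornified envelope, had effects of -0.71 ± 0.19 and 1.04 ± 0.19, and Sbsn, suprabasin of upper epidermis, -0.58 ± 0.08 and 0.43 ± 0.08. The Sbsn call ended without probe sets that can read several genes (adjusted p = 0.167). Calcb, a calcitonin gene-related peptide, had an interaction of 1.82 ± 0.29. Tubb3, a neuronal tubulin, was at -0.47 ± 0.09 and 0.39 ± 0.09, and Cryab, a small heat shock protein, at -0.35 ± 0.06 and 0.48 ± 0.06, both with array values that did not overlap at either day. Nefl, the neurofilament light chain, had an interaction of 0.87 ± 0.15, and its call ended without CSA day 3 replicate 1 (adjusted p = 0.0508) or 2 (adjusted p = 0.0504). Snord104, a small nucleolar RNA, had 0.91 ± 0.15, and its call ended without CSA day 3 replicate 2 (adjusted p = 0.0521).

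Genes that CSA raised at day 3 included enzymes of the amino acid response, the programme driven by ATF4 when amino acids are short. Of 39 tested genes on this list 7 were called with a negative interaction, against 3.43% of all genes, and 0 with a positive one. The list was higher with CSA at both days (29 rose and 0 fell at day 3, against 7.14% and 5.52% of all genes; 16 rose and 2 fell at day 6, against 6.41% and 6.11%). Its median effect was 0.55 at day 3 and 0.28 at day 6, so the response was present at both days and smaller at the later one. Over the 40 genes on the array, median signals were 11.71 and 11.67 with CSA at day 3, against 10.97 and 10.95 with DMSO, and 11.37 and 11.32 with CSA at day 6, against 10.89 and 10.90 with DMSO. With 1 array left out in turn the count was between 5 and 9.

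Gpt2, the mitochondrial alanine transaminase, carried the smallest adjusted p of the interaction among the named genes. It measured 11.93 and 11.89 with CSA at day 3, against 10.02 and 10.05 with DMSO, and 11.17 and 10.96 with CSA at day 6, against 11.12 and 10.91 with DMSO. The day 3 effect of 1.87 ± 0.10 compared with 0.05 ± 0.10 at day 6, where the arrays overlapped (interaction -1.82 ± 0.14, adjusted p = 2.85e-04). Cth, which makes cysteine from cystathionine, had 0.61 ± 0.06 and -0.05 ± 0.06. The others of the list called at day 3 and not day 6 were Slc7a1, Aldh18a1 and Lars, named to complete the count.

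Aldh1l2, a mitochondrial enzyme of folate metabolism, kept an effect at day 6 that was smaller than at day 3. Its signal was 10.56 and 10.44 with CSA at day 3, against 6.57 and 6.59 with DMSO, and 9.86 and 9.84 with CSA at day 6, against 7.94 and 7.81 with DMSO. CSA arrays were far above DMSO arrays at both days, and the effect was 3.92 ± 0.14 at day 3 and 1.98 ± 0.14 at day 6 (interaction -1.94 ± 0.19, adjusted p = 7.81e-04). The same pattern held for Slc7a3, an arginine and lysine transporter (1.85 ± 0.10 and 0.56 ± 0.10), for Pck2, the mitochondrial PEP carboxykinase (2.22 ± 0.12 and 0.59 ± 0.12), and for Niban1, a stress-responsive protein (2.36 ± 0.11 and 1.08 ± 0.11). Pck2 and Niban1 are not on the list. The Pck2 call ended without probe sets that can read several genes (adjusted p = 0.0578). On the list of the unfolded protein response, 25 of 37 genes rose at day 3 and 19 at day 6, against 7.14% and 6.41% of all genes. The interaction was called negative for 3 (Atf3, Atf6 and Xbp1) and positive for 1 (Sdf2l1), against 5.79% of all genes in either direction. With probe sets averaged both the Atf6 and the Xbp1 interaction were -0.26 and not called, and without probe sets that can read several genes that of Xbp1 was -0.0115. Sdf2l1 lost its call without any 1 of the 8 arrays, and so did the other three except without DMSO day 3 replicate 1 (Atf3) or DMSO day 3 replicate 2 (Atf6 and Xbp1), with adjusted p = 0.0525 to 0.142.

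Further named genes were raised at day 3 and not called at day 6. Alpl encodes an alkaline phosphatase whose stain marks colonies early in reprogramming, and measured 8.38 and 8.65 with CSA at day 3, against 6.62 and 6.57 with DMSO, and 6.10 and 6.71 with CSA at day 6, against 6.55 and 6.50 with DMSO. Only the CSA arrays of day 3 were high (interaction -2.04 ± 0.41, adjusted p = 0.0211). That call ended without CSA day 3 replicate 1 or 2 (adjusted p = 0.0723 and 0.105), DMSO day 6 replicate 1 or 2 (adjusted p = 0.0636 and 0.0628) or CSA day 6 replicate 1 (adjusted p = 0.0511).

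Qpct, which forms N-terminal pyroglutamate, had effects of 2.13 ± 0.26 and -0.09 ± 0.26, and its call ended without CSA day 3 replicate 1 (adjusted p = 0.0528). Mal2, a protein of transport to the apical membrane of epithelia, had 1.43 ± 0.16 and -0.42 ± 0.16 (interaction adjusted p = 0.00197). The stress keratins Krt16 and Krt17 had interactions of -0.68 ± 0.10 and -1.36 ± 0.21; with all probe sets of Krt17 averaged, its interaction was 0.16 and reversed in sign. Vegfa, the vascular growth factor, had 1.33 ± 0.15 at day 3 and 0.01 ± 0.15 at day 6 (adjusted p = 0.00872, or 0.255 with its probe sets averaged). Ndrg1, induced by low oxygen, had 0.70 ± 0.07 and -0.14 ± 0.07. Vegfa and Ndrg1 belong to the glycolysis and hypoxia list, of which 3 of 33 genes rose and 6 fell at day 3, against 7.14% and 5.52% of all genes. Col1a2, a chain of type I collagen, was at 11.98 and 11.94 with CSA at day 3, against 11.30 and 11.23 with DMSO, and 13.16 and 13.20 with CSA at day 6, against 13.35 and 13.37 with DMSO, so its values separated at both days but were called at the first alone. Averaging its probe sets ended the interaction call (adjusted p = 0.271).

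Genes of the cell cycle were lower with CSA at day 3 and differed less at day 6. In the DNA replication list, 28 of 47 genes fell at day 3 and 4 at day 6, against 5.52% and 6.11% of all genes. At either day 0 rose, against 7.14% and 6.41%. The interaction was called positive for 9 genes, against 2.36% of all genes, and negative for 0, and all 9 were called at day 3 and not day 6. In the list of G2 and mitosis, 35 of 45 genes fell at day 3 and 8 at day 6, against 5.52% and 6.11% of all genes. It had 12 positive and 0 negative interaction calls, against 2.36% and 3.43%. The median effects were -0.52 and -0.11 for replication and -0.62 and -0.21 for G2 and mitosis.

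The time course of these lists differed between treatments. For replication genes the median signal was 10.09 and 10.10 with CSA at day 3, against 10.48 and 10.61 with DMSO, and 10.02 and 9.91 with CSA at day 6, against 10.02 and 9.82 with DMSO, where the groups overlapped. Between the days the median change over the list was -0.02 with CSA and -0.47 with DMSO. For G2 and mitosis the arrays were 9.78 and 9.86 with CSA at day 3, against 10.38 and 10.46 with DMSO, and 9.86 and 9.83 with CSA at day 6, against 10.09 and 10.21 with DMSO, so these genes remained lower with CSA at day 6. The change between days was 0.03 with CSA and -0.35 with DMSO. Replication calls fell to 3 without CSA day 3 replicate 2 or DMSO day 6 replicate 2 and to 5 without CSA day 3 replicate 1. Calls of G2 and mitosis fell to 1 without CSA day 3 replicate 2 or DMSO day 6 replicate 2, 3 without CSA day 3 replicate 1, 4 without DMSO day 6 replicate 1, and 5 without DMSO day 3 replicate 2 or CSA day 6 replicate 2.

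Mcm5, a subunit of the replicative helicase, had the largest interaction of the replication genes named, and its call held without each single array. It measured 11.25 and 11.22 with CSA at day 3, against 12.24 and 12.19 with DMSO, and 11.06 and 11.10 with CSA at day 6, against 11.13 and 11.04 with DMSO. DMSO arrays of day 3 stood alone above the other 6 arrays (interaction 0.97 ± 0.10, adjusted p = 9.14e-04). With the probe sets of Mcm5 averaged the interaction was 1.52. Dut, which keeps uracil out of DNA, had -0.72 ± 0.07 and 0.08 ± 0.07, a call that ended when probe sets that can read several genes were left out (adjusted p = 0.923) or when its probe sets were averaged (adjusted p = 0.25). Mcm4 had -0.67 ± 0.08 and -0.02 ± 0.08, and its call ended without CSA day 3 replicate 2 (adjusted p = 0.0552). Birc5, encoding survivin of the chromosomal passenger complex, had -0.69 ± 0.08 and -0.03 ± 0.08, and its call ended without CSA day 3 replicate 1 (adjusted p = 0.0588), CSA day 3 replicate 2 (adjusted p = 0.0521) or DMSO day 6 replicate 2 (adjusted p = 0.056). Aurka, the mitotic Aurora A kinase, fell at both days, by 1.07 ± 0.09 at day 3 and 0.33 ± 0.09 at day 6; its interaction call ended without CSA day 3 replicate 2 (adjusted p = 0.0585) or DMSO day 6 replicate 2 (adjusted p = 0.0502).

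The promoters of Mcm5 and Birc5 are shown as examples of the genes lower at day 3 alone, with the E2F motif GGCGGGA, on either strand, in capitals (RefSeq, GRCm38.p6, 250 bases before the start).
Mcm5, chr8:75109259-75109508, plus strand: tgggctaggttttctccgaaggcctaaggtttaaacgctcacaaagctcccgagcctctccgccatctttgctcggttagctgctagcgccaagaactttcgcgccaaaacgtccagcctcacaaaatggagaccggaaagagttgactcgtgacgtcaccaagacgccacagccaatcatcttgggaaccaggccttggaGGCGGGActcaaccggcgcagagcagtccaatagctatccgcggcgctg
Birc5, chr11:117848987-117849236, plus strand: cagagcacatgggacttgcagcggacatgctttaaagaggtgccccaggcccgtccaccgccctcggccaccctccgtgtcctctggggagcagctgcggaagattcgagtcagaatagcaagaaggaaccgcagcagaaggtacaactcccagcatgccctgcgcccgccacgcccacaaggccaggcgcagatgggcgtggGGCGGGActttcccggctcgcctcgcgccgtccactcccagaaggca
The site begins 49 bases before the start in Mcm5 and 47 in Birc5. GGCGGGA was found in 4 of 9 promoters of the called replication genes and 2 of 10 of the called genes of G2 and mitosis, against 9.75% of all promoters.

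Outside the cell cycle, the largest positive interaction among named day 3 genes that held without each single array was that of Bcl2l15, a relative of the Bcl-2 family. It measured 7.27 and 6.65 with CSA at day 3, against 8.97 and 8.51 with DMSO, and 7.15 and 6.82 with CSA at day 6, against 5.91 and 6.26 with DMSO (interaction 2.68 ± 0.43, adjusted p = 0.00703). The arrays did not overlap at day 6 either, in the opposite direction, but that effect of 0.90 ± 0.30 did not pass (adjusted p = 0.0912). Sptssb, a subunit of serine palmitoyltransferase, had -1.29 ± 0.19 and 0.31 ± 0.19, and its interaction call ended with its probe sets averaged (adjusted p = 0.173).

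**Figure D3:**
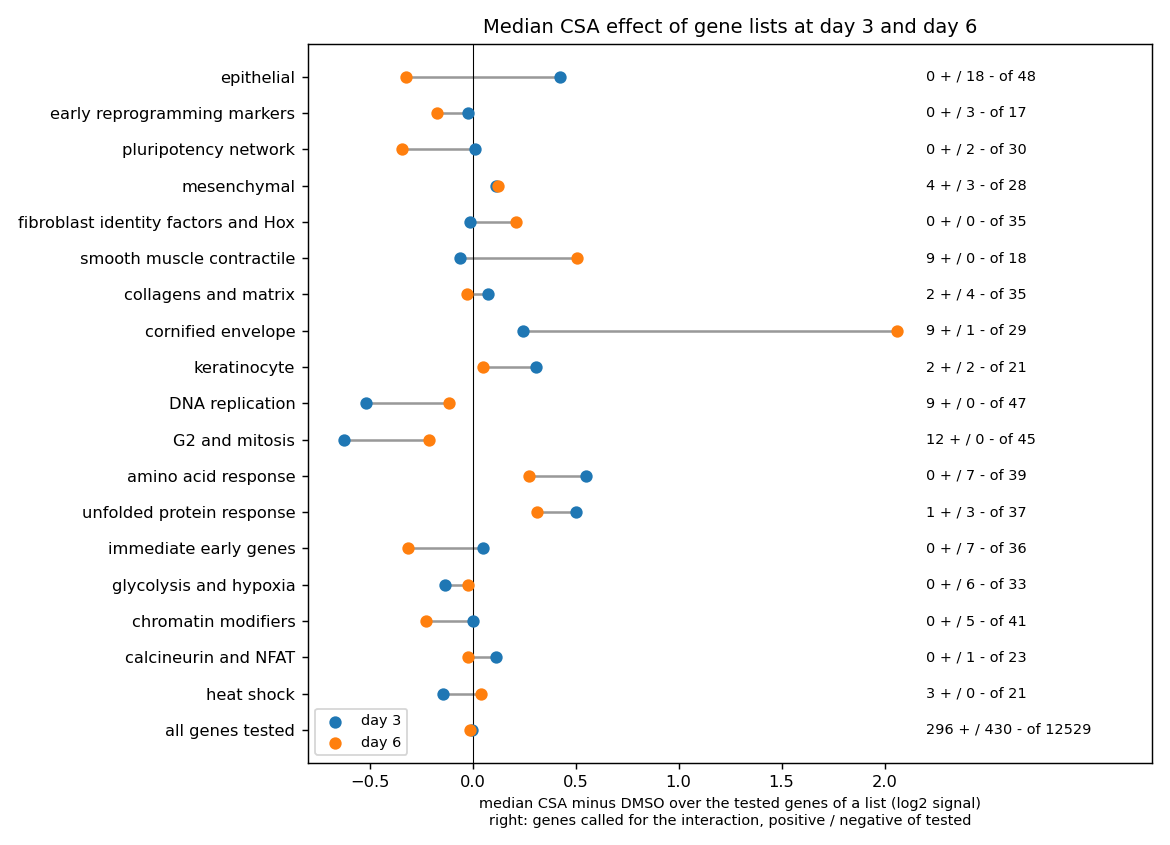
Median difference between CSA and DMSO over the tested genes of each list at day 3 (blue) and day 6 (orange), in log2 signal, with the number of genes called for the interaction at the right, positive before negative, of those tested. The epithelial list crosses zero from 0.42 to -0.32, the cornified envelope list moves to 2.06 at day 6, and both cell cycle lists move toward zero.

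The largest day 6 responses belonged to genes of the cornified envelope, the cross-linked protein shell of terminally differentiated keratinocytes. Of 29 tested genes 9 were called with a positive interaction, against 2.36% of all genes, and 1, Evpl (envoplakin), with a negative one (-0.90), against 3.43%. At day 3, 0 members rose and 2 fell, against 7.14% and 5.52% of all genes. At day 6, 18 rose and 2 fell, against 6.41% and 6.11%. The median effect was 0.25 at day 3 and 2.06 at day 6. Median signals over the 41 genes on the array were 6.24 and 6.36 with CSA at day 3, against 5.85 and 6.03 with DMSO, and 8.13 and 7.99 with CSA at day 6, against 5.74 and 5.98 with DMSO. The list rose between the days by a median of 2.06 with CSA and 0.02 with DMSO. Without CSA day 6 replicate 1 the positive calls fell to 5, and without any other single array they were between 6 and 9.

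Lce1d, a late cornified envelope protein, measured 6.77 and 7.22 with CSA at day 3, against 6.64 and 6.65 with DMSO, and 10.09 and 10.00 with CSA at day 6, against 5.65 and 6.60 with DMSO. The CSA arrays of day 6 stood alone, with an effect of 3.92 ± 0.31 (interaction 3.57 ± 0.43, adjusted p = 0.00186). Lce1a1, Lce1a2 and Lce3b had interactions of 2.83 ± 0.37, 3.22 ± 0.56 and 2.78 ± 0.42, and the Lce1a2 call ended without CSA day 6 replicate 1 (adjusted p = 0.0522). The Lce genes are near-identical copies, several of these probe sets can read more than one of them, and which copy gave the signal is uncertain. Crct1, a cysteine-rich protein encoded in the same cluster, measured 7.69 and 7.85 with CSA at day 3, against 7.36 and 7.64 with DMSO, and 11.49 and 11.70 with CSA at day 6, against 9.60 and 9.59 with DMSO (interaction 1.73 ± 0.20, adjusted p = 0.00143). Unlike Lce1d, it also rose in DMSO arrays between the days.

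The keratinocyte list, which holds keratins and other epidermal genes, went both ways. Of its 21 tested genes, the interaction was called positive for Krt6a and Sbsn and negative for Krt16 and Krt17, against 2.36% and 3.43% of all genes. The median effects were 0.31 at day 3 and 0.05 at day 6. Krt6a, a keratin of stressed epidermis, measured 9.16 and 9.34 with CSA at day 3, against 8.89 and 9.07 with DMSO, and 10.47 and 10.52 with CSA at day 6, against 8.88 and 8.79 with DMSO (interaction 1.39 ± 0.17, adjusted p = 0.00196). Asprv1, a protease that processes filaggrin, rose at both days, by 1.23 ± 0.10 and 1.94 ± 0.10. Its interaction of 0.71 ± 0.14 was no longer called without CSA day 3 replicate 1 or 2 (adjusted p = 0.083 and 0.0652), DMSO day 6 replicate 1 (adjusted p = 0.0806) or CSA day 6 replicate 1 (adjusted p = 0.0697).

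Genes of the smooth muscle contractile apparatus were higher with CSA at day 6. Of 18 tested genes 9 were called with a positive interaction, against 2.36% of all genes, and 0 with a negative one, and 8 of those 9 were called at day 6 and not day 3. The median effect was -0.06 at day 3 and 0.51 at day 6, where 9 genes rose, against 6.41% of all genes, and 0 fell. Median signals over the 22 genes on the array, which include those below the filter, were 9.96 and 9.93 with CSA at day 3, against 9.68 and 9.59 with DMSO, and 10.19 and 10.30 with CSA at day 6, against 9.49 and 9.37 with DMSO. The calls fell to 4 without CSA day 3 replicate 1, DMSO day 6 replicate 2 or CSA day 6 replicate 2 and to 5 without CSA day 3 replicate 2 or DMSO day 6 replicate 1.

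Acta2, smooth muscle actin, measured 11.49 and 11.46 with CSA at day 3, against 11.41 and 11.67 with DMSO, and 12.81 and 12.83 with CSA at day 6, against 12.11 and 12.04 with DMSO (interaction 0.81 ± 0.12, adjusted p = 0.00448). It rose between the days in both treatments and further with CSA. Actg2, the enteric smooth muscle actin, declined between the days in both treatments and less with CSA, with effects of -0.14 ± 0.10 at day 3 and 0.77 ± 0.10 at day 6. Cnn2, a calponin, had -0.05 ± 0.07 and 0.60 ± 0.07 (interaction adjusted p = 0.00517). Des, the muscle filament desmin, had the largest interaction of the list, 3.10 ± 0.55, with 7.44 and 7.65 with CSA at day 6, against 4.40 and 4.93 with DMSO, and its call ended without CSA day 3 replicate 1 (adjusted p = 0.0567) or CSA day 6 replicate 2 (adjusted p = 0.0519).

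The promoters below illustrate both day 6 groups. Cnn2 and Myl9, the regulatory myosin light chain (interaction 0.90 ± 0.21, chosen after its value was seen), carry the CArG box bound by serum response factor, and Lce1d carries TATAAA. The motif, on either strand, is in capitals (RefSeq, GRCm38.p6, 250 bases before the start).
Cnn2, chr10:79988350-79988599, plus strand: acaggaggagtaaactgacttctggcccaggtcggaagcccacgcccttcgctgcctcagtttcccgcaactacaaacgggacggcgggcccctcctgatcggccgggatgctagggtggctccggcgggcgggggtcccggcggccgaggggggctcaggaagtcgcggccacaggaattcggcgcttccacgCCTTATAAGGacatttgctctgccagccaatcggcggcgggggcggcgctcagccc
Myl9, chr2:156775214-156775463, plus strand: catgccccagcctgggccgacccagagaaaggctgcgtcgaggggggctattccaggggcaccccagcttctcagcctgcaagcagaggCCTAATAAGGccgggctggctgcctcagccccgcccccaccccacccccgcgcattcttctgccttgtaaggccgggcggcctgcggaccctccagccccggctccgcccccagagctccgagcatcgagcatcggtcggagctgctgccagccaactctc
Lce1d, chr3:92687211-92687460, minus strand: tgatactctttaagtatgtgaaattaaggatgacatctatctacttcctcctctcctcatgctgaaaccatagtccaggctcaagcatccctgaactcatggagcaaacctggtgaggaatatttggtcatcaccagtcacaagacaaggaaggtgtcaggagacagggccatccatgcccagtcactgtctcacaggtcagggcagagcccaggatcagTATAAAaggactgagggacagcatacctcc
A CArG box was found in 2 of 7 promoters of the called smooth muscle genes, against 1.47% of all promoters. TATAAA was found in 3 of 7 promoters of the called cornified envelope genes (Lce1d, Sprr1a and Sprr3), against 12.4%, and the AP-1 motif TGANTCA in 1 of those 7 (Sprr1a), against 6.75%. TGATGNAA was in 0 of 4 promoters of called genes on the amino acid response list, against 3.45%. The promoter of Pck2, described beside that list and not on it, holds 1 such site, 103 bases before the start.

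Mesenchymal and matrix genes went both ways at day 6. Cdh2 encodes N-cadherin, the cadherin of mesenchymal cells, and measured 11.12 and 11.15 with CSA at day 3, against 10.97 and 11.14 with DMSO, and 11.45 and 11.44 with CSA at day 6, against 10.30 and 10.34 with DMSO. It declined between the days in DMSO arrays and not in CSA arrays (interaction 1.05 ± 0.12, adjusted p = 0.00124). Timp2, an inhibitor of matrix metalloproteinases, had 0.07 ± 0.06 and 0.84 ± 0.06, and Fbln5, an organiser of elastic fibres, 0.32 ± 0.10 and 1.26 ± 0.10 (interaction adjusted p = 0.00443). Lox, which cross-links collagen, had an interaction of 0.75 ± 0.13, and its call ended without CSA day 3 replicate 2 (adjusted p = 0.051) or with its probe sets averaged (0.35, adjusted p = 0.282). Vim, vimentin, had 0.55 ± 0.09, and its call ended without CSA day 3 replicate 2 (adjusted p = 0.0584) or DMSO day 6 replicate 2 (adjusted p = 0.0517).

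Postn, the matrix protein periostin, went the other way and had the most negative interaction of all genes tested, -3.33 ± 0.40 (adjusted p = 0.00182). It measured 6.22 and 6.90 with CSA at day 3, against 6.04 and 5.58 with DMSO, and 7.08 and 7.21 with CSA at day 6, against 9.68 and 9.76 with DMSO. DMSO arrays climbed steeply by day 6 and CSA arrays did not. Mamdc2, a secreted proteoglycan, had 0.60 ± 0.24 and -1.70 ± 0.24 (interaction adjusted p = 0.00495). Of 28 tested mesenchymal genes the interaction was called positive for 4 (Cdh2, Axl, Vim and S100a4) and negative for 3 (Postn, Nt5e and Fn1), against 2.36% and 3.43% of all genes, with a median of 0.07. Of 35 collagen and matrix genes 2 were called positive and 4 negative, against the same shares.

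Lpl, lipoprotein lipase, was the clearest day 6 gene of lipid storage, at 10.05 and 10.32 with CSA at day 3, against 10.15 and 9.83 with DMSO, and 10.01 and 10.00 with CSA at day 6, against 8.28 and 8.46 with DMSO (interaction 1.45 ± 0.20, adjusted p = 0.0029). Its CSA level held between the days while the DMSO level declined. Plin2, which coats lipid droplets, rose at both days, by 0.34 ± 0.07 and 0.91 ± 0.07 (interaction adjusted p = 0.00897). Scg5, a secretory granule chaperone, had -0.29 ± 0.09 and 0.68 ± 0.09.

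Among reprogramming factors, Pou5f1 was lower with CSA at day 6 and not called at day 3. It measured 9.53 and 9.21 with CSA at day 3, against 9.18 and 8.58 with DMSO, and 9.08 and 9.21 with CSA at day 6, against 10.31 and 10.10 with DMSO. The day 6 arrays did not overlap (interaction -1.56 ± 0.26, adjusted p = 0.00907), and the call ended without CSA day 3 replicate 1 (adjusted p = 0.0502). Klf4 (0.16 ± 0.16, adjusted p = 0.634) and Myc (0.19 ± 0.12, adjusted p = 0.419) were not called. Neither was Thy1, the fibroblast surface marker (-0.23 ± 0.16, adjusted p = 0.483). Of 30 tested genes of the pluripotency network, Pou5f1 and Tet2 were the only ones called for the interaction, against 5.79% of all genes.

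Immediate early genes, transcribed within minutes of a stimulus, had negative calls for 7 of 36 genes, against 3.43% of all genes, and positive for 0. Their median effect was 0.05 at day 3 and -0.31 at day 6, where 14 fell and 2 rose, against 6.11% and 6.41% of all genes. Ier2 had 0.05 ± 0.08 and -0.56 ± 0.08, and Nr4a1, an orphan nuclear receptor, fell at both days, by 0.30 ± 0.07 and 0.84 ± 0.07. Both calls ended without CSA day 3 replicate 1 or 2, DMSO day 6 replicate 1 or 2, or CSA day 6 replicate 2 (adjusted p = 0.0544 to 0.0788). The list's negative count was 1 without CSA day 3 replicate 1 or DMSO day 6 replicate 1, 2 without CSA day 6 replicate 2, and 3 without CSA day 3 replicate 2 or DMSO day 6 replicate 2.

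In the glycolysis and hypoxia list, 6 of 33 genes had negative calls, against 3.43% of all genes. Aldoc, a brain-type aldolase, measured 7.07 and 8.03 with CSA at day 3, against 7.58 and 7.63 with DMSO, and 9.58 and 9.40 with CSA at day 6, against 11.30 and 11.47 with DMSO (interaction -1.83 ± 0.34, adjusted p = 0.0141). Its call ended without DMSO day 6 replicate 2 (adjusted p = 0.0665) or CSA day 6 replicate 2 (adjusted p = 0.0539). The median of the list, 0.05, did not follow these 6. Of 41 chromatin modifiers 5 had negative calls (Dnmt3a, Setdb1, Chd4, Kdm1a and Arid1a), against 3.43% of all genes, but 0 of the list were called without any 1 of 6 arrays, which were all the CSA arrays and both DMSO arrays of day 6. Without probe sets that can read several genes the interaction was -0.02 for Chd4 and 0.26 for Setdb1, and with probe sets averaged the calls of Dnmt3a, Setdb1, Chd4 and Arid1a ended (adjusted p = 0.0525 to 0.708).

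Some genes moved the same way at both days by different amounts. Serpinb9b, a serine protease inhibitor, measured 11.82 and 11.90 with CSA at day 3, against 11.48 and 11.51 with DMSO, and 11.75 and 11.83 with CSA at day 6, against 10.30 and 10.16 with DMSO. CSA arrays stayed level and DMSO arrays declined (interaction 1.20 ± 0.11, adjusted p = 7.81e-04). The predicted gene Gm41724 had 0.59 ± 0.10 and 1.83 ± 0.10. Acsl6, which activates long-chain fatty acids, fell at both days, by 1.11 ± 0.19 and 2.65 ± 0.19; its call ended without CSA day 3 replicate 1 (adjusted p = 0.0563), and with its probe sets averaged (adjusted p = 0.656). Ucn3, the peptide urocortin 3, fell by 1.02 ± 0.18 and 2.37 ± 0.18, and its interaction call ended without CSA day 3 replicate 1 (adjusted p = 0.0537) or DMSO day 6 replicate 1 or 2 (adjusted p = 0.0782 and 0.0768).

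**Figure D4:**
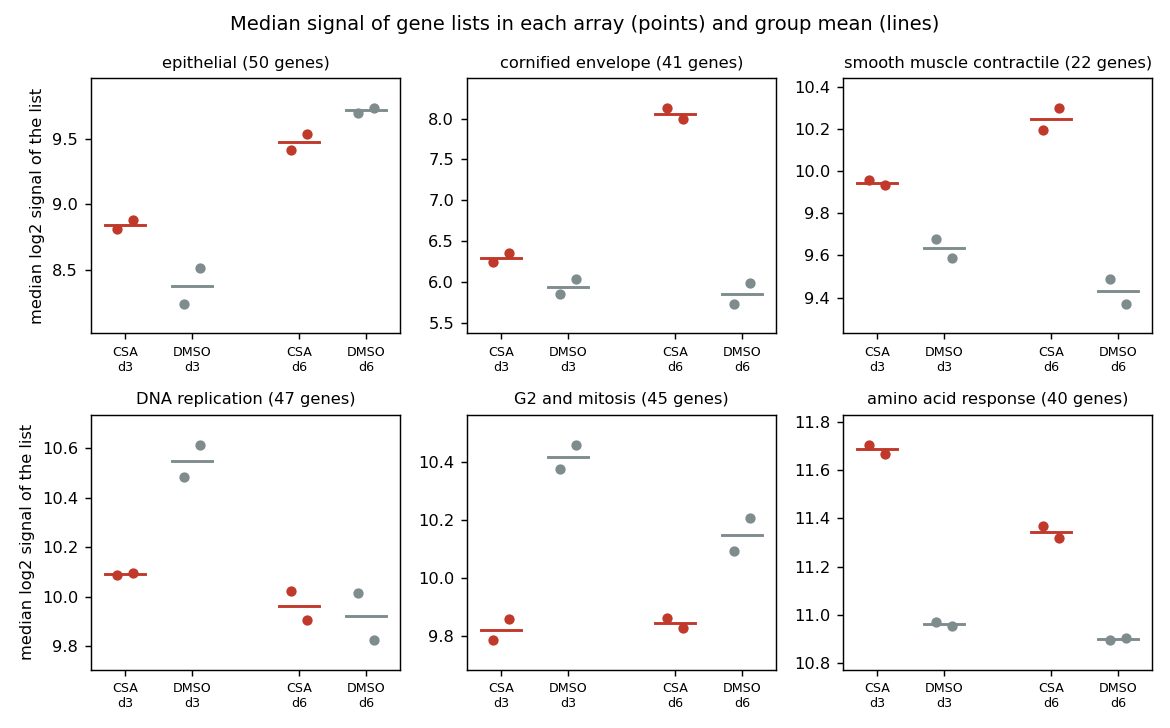
Median log2 signal of the genes of 6 lists on the array, in each array, with CSA (red) left of DMSO (grey) at each day; points are arrays and lines are group means of 2. Epithelial medians cross between the days, the cornified envelope list is high in the CSA arrays of day 6 alone, and replication genes are high in the DMSO arrays of day 3 alone.

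By limma, several lists had no gene called for the interaction, against 5.79% of all genes. These were oxidative phosphorylation (0 of 46), fibroblast identity factors and Hox (0 of 35), interferon response (0 of 26) and cyclophilins (0 of 12), with 10, 9, 2 and 1 genes at an unadjusted p under 0.05 and median interactions of 0.02, 0.34, 0.50 and 0.12. Rcan1, a calcineurin inhibitor that NFAT induces, was not called either (-0.27 ± 0.10, adjusted p = 0.161). Markers of macrophages (0 of 8), endothelium (0 of 8) and lymphoid and erythroid cells (0 of 3) had 0 calls by limma as well. With so few genes tested, 0 calls cannot be told apart from the share of all genes. Of these markers, 0, 3 and 0 were at an unadjusted p under 0.05, against 2856 of all 12529 genes. Summed linear signals of the 17 macrophage genes on the array were 905 to 963 with CSA at day 3, against 1069 to 1088 with DMSO, and 1209 to 1272 with CSA at day 6, against 1136 to 1184 with DMSO. That sum stood lower with CSA at day 3 and higher at day 6, and its part in the result for Ccl2 was not tested.

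**Figure D5:**
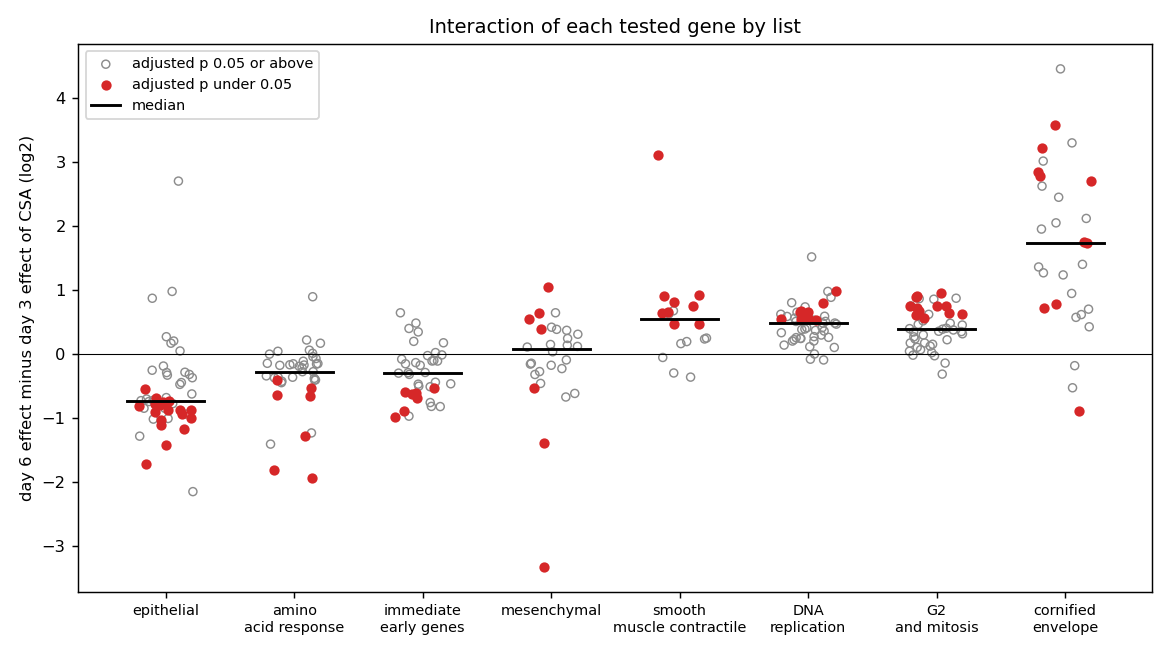
Interaction (day 6 effect minus day 3 effect of CSA, log2) of each tested gene in 8 lists; filled points passed an adjusted p under 0.05 and black lines are list medians. Called genes lie below zero in the epithelial, amino acid response and immediate early lists and above zero in the smooth muscle, replication and mitosis lists, and the cornified envelope list spans the widest range.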

How the data were processed

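RNA from 8 cultures was measured on Affymetrix 3' expression arrays, after TRIZOL extraction, column purification and amplification to biotin-labelled cRNA, per the labels' protocols. For every probe set on each array the authors deposited a log2 signal from MAS5, per the submitters' processing notes. The sources used here do not give the scaling target or how low signals were handled. MAS5 scales each array by a constant and reads dim probe sets poorly, so their log2 differences are noisy. The deposited log2 values were used as they stood.

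The test covered 27022 probe sets, those whose mean log2 signal reached the 40th percentile, 5.37. The platform annotation, updated through Entrez IDs, gave 1 symbol for 34945 of 45037 probe sets. It gave several symbols for 932 and none for 9160. Among 408 called genes with further tested probe sets, another was called in the same direction in 117 and in the opposite direction in 1.

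All 8 arrays entered a single model with a mean for each group, in limma 3.58.1 in R 4.3.3 (4 residual degrees of freedom), with empirical Bayes moderation and an intensity trend. Tests were two-sided, with Benjamini-Hochberg adjustment over the tested probe sets and a threshold of 0.05. The pipeline was tested on simulated data. Genes were named if, among called genes with a group mean of at least 7 and arrays that did not overlap at the called days, they were among the 6 largest interactions of a class and sign, if they were among the 4 smallest p of a list, or if they were 1 of 8 genes picked for reprogramming, epithelial identity and calcineurin. Members, gene lists and rules were chosen with earlier results of these data known. Alternatives were other filters, scaling, pseudocounts, a floor, no trend, other choices of probe sets, a replicate block and leaving out each array.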

Additional observations from a re-analysis of the deposited data

Results flagged for a closer look

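The results below were singled out because the effect of CSA differed between day 3 and day 6 by a test of the difference itself, limma's interaction term. This was so for 1144 probe sets. In genes, 68 were called at both days with opposite signs, 282 at day 3 and not day 6, and 286 at day 6 and not day 3. With 2 arrays per group, outlying arrays within a group were not tested.

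Of the named genes that reversed, 15 were higher with CSA at day 3 and lower at day 6. Their interactions were -2.43 for Cpxm2, -2.15 for Muc4, -2.0 for Ak5, -1.79 for Zc3h6 and -1.58 for Eppk1. They were -1.57 for Celf5, -1.43 for St14, -1.40 for Nt5e, -1.01 for Spint2 and -0.92 for Tet2. The smallest were -0.90 for Jun, -0.87 for Krt8, -0.79 for Cdh1, -0.72 for Abcc1 and -0.61 for Homer2. Members of the epithelial list (St14, Spint2, Krt8 and Cdh1) stand beside the mesenchymal enzyme Nt5e and the transcription factor Jun.

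The named genes that were lower with CSA at day 3 and higher at day 6 numbered 9. Interactions were 1.84 for Chrdl1, 1.82 for Calcb, 1.74 for Cnfn, 1.72 for Ccl2 and 1.02 for Sbsn. They were 0.91 for Snord104, 0.87 for Nefl, 0.86 for Tubb3 and 0.83 for Cryab. Secreted proteins (Chrdl1, Calcb and Ccl2) and epidermal genes (Cnfn and Sbsn) were among them, and so were the neuronal cytoskeletal genes Nefl and Tubb3. The neuronal and neuroendocrine list as a whole went both ways. Of its 17 tested genes the interaction was called positive for 3 and negative for 3, against 2.36% and 3.43% of all genes. Its median interaction was 0.04.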

How the results depend on the processing

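The intensity trend decided the calls: without it 0 probe sets passed and 0 genes were in the reversed, day 3 or day 6 class. Robust moderation with the trend, added after seeing the data, gave 1172 probe sets. The 60th percentile filter without the trend, also added then, gave 558, with 35 reversed, 123 day 3 and 144 day 6 genes. Without probe sets that can read several genes 749 passed, on 21649 tested, and 655 of 12529 genes passed when a gene's probe sets were averaged. Leaving out 1 array gave 386 to 1009 probe sets, 17 to 63 reversed genes, 86 to 249 day 3 genes and 108 to 264 day 6 genes, with the lone array of a group assumed to vary like the other groups. Filters, quantile normalization, pseudocounts and the floor gave 910 to 1478 probe sets. Filters and trend settings do not change a gene's log2 difference, so its direction could not change under them. All 726 called genes, where present, kept their direction under scaling, pseudocounts, the floor and each left-out array. They had been called on these same arrays, so a kept sign is no separate test. Direction was kept in 605 of 621 once probe sets reading several genes were left out, and in 711 of 726 with averaged probe sets. Reversed signs among named genes came from those 2 settings. Without probe sets that can read several genes the interaction was -0.0116 for Wdr75, 0.26 for Setdb1, 0.0111 for Col3a1, -4.39e-04 for Mt1 and -0.29 for Sec11c; with probe sets averaged it was 0.16 for Krt17. These 6 rest on which probe set stands for the gene. None of their other tested probe sets was itself called for the interaction. Those of Krt17, Sec11c, Mt1 and Wdr75 were dim, with mean log2 signals of 5.42, 5.62, 5.96 and 6.86.

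Replicate numbers showed no sign of pairing over all tested probe sets: deviations of same-numbered arrays correlated at -0.0034 to 0.034. Such a correlation cannot exclude pairing that touched few genes. With the replicate number as a block 1208 probe sets passed, with 70 reversed, 306 day 3 and 308 day 6 genes.

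Of 36 lists with at least 4 tested genes, 26 kept the sign of their median interaction under every alternative.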

Other observations

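Secreted inhibitors of Wnt signalling were the called members of the Wnt list. Of 23 tested genes, the interaction was called negative for Dkk2 and Wif1, which bind Wnt receptors and Wnt ligands, and positive for Notum, which removes a lipid from Wnt ligands. Over all genes the shares called were 3.43% negative and 2.36% positive. Wif1 measured 9.17 and 9.08 with CSA at day 3, against 8.99 and 9.29 with DMSO, and 7.26 and 6.83 with CSA at day 6, against 8.39 and 8.17 with DMSO (interaction -1.22 ± 0.27, adjusted p = 0.0303 by limma). It declined between the days in both treatments, and further with CSA. Dkk2 measured 6.35 and 6.50 with CSA at day 3, against 6.01 and 5.93 with DMSO, and 8.87 and 8.45 with CSA at day 6, against 9.64 and 9.54 with DMSO (interaction -1.39 ± 0.31, adjusted p = 0.0303 by limma). Notum was lower with CSA at day 3 alone, with effects of -1.0 ± 0.14 and -0.04 ± 0.14. The Wif1 call ended without 6 of the 8 single arrays, all but DMSO day 3 replicate 2 and CSA day 6 replicate 1. The Dkk2 call ended without any of 6 arrays, all but DMSO day 3 replicate 1 and CSA day 6 replicate 1. That of Notum ended without 5, which were both CSA arrays of day 3, both DMSO arrays of day 6 and CSA day 6 replicate 2 (adjusted p = 0.0515 to 0.121 over the 3 genes).

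Fth1, the ferritin heavy chain that stores iron, measured 13.60 and 13.68 with CSA at day 3, against 13.64 and 13.60 with DMSO, and 13.68 and 13.80 with CSA at day 6, against 13.26 and 13.22 with DMSO. The arrays overlapped at day 3 and not at day 6 (interaction 0.49 ± 0.09), and the call ended without CSA day 3 replicate 1 (adjusted p = 0.0717) or DMSO day 6 replicate 2 (adjusted p = 0.0597). Dhcr7, the last enzyme of cholesterol synthesis, had effects of 0.71 ± 0.14 at day 3 and -0.35 ± 0.14 at day 6. It was the only one of 30 genes of cholesterol and fatty acid synthesis called for the interaction, against 5.79% of all genes. Its call ended without CSA day 3 replicate 2 (adjusted p = 0.0666) or DMSO day 6 replicate 2 (adjusted p = 0.0555).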
